A study of Homo sapiens with 4 samples.

Results

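Nuclear copies of mitochondrial genes were followed in an RNA sequencing experiment on 2 human liver cancer cell lines. They were taken from the deposited table by symbol, as nuclear genes named after a mitochondrial protein gene or ribosomal RNA with a pseudogene number (MTND1P23, MTCO1P12 and the like) or as members of the MTRNR2L family, with a value above 0 in at least 1 library. The rule found 110 such genes among the 32479 genes of the table, and each was set beside its mitochondrial parent, 1 of 13 protein-coding genes and 2 ribosomal RNAs. The value above 0 that chose them is a low bar, since 31 of the 110 were held by 1 fragment over the 4 libraries together. The table listed no gene at 0 in all libraries. GENCODE release 29 holds 407 symbols of this form, and the other 297 were not analysed here.

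Pieces of mitochondrial DNA have been copied into the nuclear genome many times, and these insertions are called nuclear mitochondrial segments. An old copy has gathered many differences from its parent, while a young copy is nearly identical to it, so a short read of a mitochondrial transcript can match both places. The MTRNR2L genes are nuclear copies of the mitochondrial large ribosomal RNA that keep an open reading frame like that of humanin, a short peptide encoded within that RNA.

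HepG2, a line derived from a hepatoblastoma, and PLC/PRF/5, a hepatoma line with hepatitis B virus DNA integrated in its genome, were each sequenced untreated, as a control taken at 24 h, and with PF-429242 at 20 uM for 24 h. PF-429242 inhibits site-1 protease (MBTPS1), a Golgi enzyme that releases membrane-bound transcription factors. The labels call all 4 cultures liver cancer cells of wild-type genotype. Each group held 1 library, so no difference between single libraries has a replicate check and none is given a p-value. The only p-values come from a fit over both lines, which used the lines in place of replicates.

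Values were FPKM, fragments counted on a gene scaled to its length and to the library's total, and the fragments behind them were recovered from the values. The libraries held between 16722204 and 21387301 counted fragments, and 3 fragments on a gene of 1 kb correspond to between 0.140 and 0.179 FPKM. All 10 hepatocyte markers looked up were at 1 FPKM or more in at least 1 library of each pair. Fibroblast, endothelial and blood markers found in the table, each list summed apart, stayed at or under 1.64 FPKM in every library. The mitochondrial genes took 16.6% of the HepG2 control library and 27.6% of treated HepG2, and for PLC/PRF/5 21.3% of the control and 28.2% of the treated library. Their part in the results on the nuclear copies is given only through the parent values set beside each copy and was otherwise not tested.

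The sequences that tell the abundant copies from their parents are few. MTND1P23, on the chromosome 1 segment described further on, was the member with the highest identity to its parent, with 349 of 352 aligned columns identical and 3 differing bases. The window of 80 bases with the most differences is shown for it and for MT-ND1, as are the windows for the copies of MT-ND2, MT-CO1 and MT-ATP6 from the same segment. Capitals mark the bases that differ within each pair, and all are read 5′ to 3′ on the plus strand of GRCh38 from GENCODE 29 transcripts.
MTND1P23 (chr1:629195-629274): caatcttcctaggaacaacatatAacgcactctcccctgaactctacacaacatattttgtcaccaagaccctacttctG
MT-ND1 (chrM:4025-4104): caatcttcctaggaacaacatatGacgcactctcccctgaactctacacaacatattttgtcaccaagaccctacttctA
MTND2P28 (chr1:630049-630128): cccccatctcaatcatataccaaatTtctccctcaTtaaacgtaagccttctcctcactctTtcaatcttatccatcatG
MT-ND2 (chrM:4879-4958): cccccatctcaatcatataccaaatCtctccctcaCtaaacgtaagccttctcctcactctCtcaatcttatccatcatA
MTCO1P12 (chr1:631390-631469): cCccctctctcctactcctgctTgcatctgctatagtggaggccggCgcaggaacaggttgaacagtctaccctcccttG
MT-CO1 (chrM:6220-6299): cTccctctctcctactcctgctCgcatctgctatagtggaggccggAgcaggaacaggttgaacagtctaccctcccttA
MTATP6P1 (chr1:633808-633887): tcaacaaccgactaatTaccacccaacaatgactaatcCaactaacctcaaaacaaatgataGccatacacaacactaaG
MT-ATP6 (chrM:8639-8718): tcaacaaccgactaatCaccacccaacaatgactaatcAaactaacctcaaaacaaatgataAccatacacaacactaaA
Even in these windows a pair differed at 2 bases (MTND1P23) or 4 bases (the other 3 pairs). Outside them the longest stretch without any difference was 158 bases for MTND1P23, 266 for MTND2P28, 245 for MTCO1P12 and 141 for MTATP6P1. A fragment that falls inside such a stretch carries no base that separates copy from parent, and the authors' way of assigning fragments that match both places was not given in the sources used here. Each of these copies therefore has an uncertain count.

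A pair of copies from a segment on chromosome 5, which lies on the minus strand, are shown for contrast, because they carried more differences from their parents. The window of the MT-ND4 copy held 9 differing bases and that of the MT-ND5 copy held 18.
MTND4P12 (chr5:134927851-134927930): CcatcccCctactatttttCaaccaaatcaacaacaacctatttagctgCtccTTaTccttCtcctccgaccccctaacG
MT-ND4 (chrM:10866-10945): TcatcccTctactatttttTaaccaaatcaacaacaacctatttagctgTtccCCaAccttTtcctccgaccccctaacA
MTND5P11 (chr5:134925011-134925090): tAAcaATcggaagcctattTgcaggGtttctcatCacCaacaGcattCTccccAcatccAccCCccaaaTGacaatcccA
MT-ND5 (chrM:13706-13785): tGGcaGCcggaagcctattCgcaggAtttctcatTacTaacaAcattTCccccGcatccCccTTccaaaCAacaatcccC
Over the whole alignment MTND4P12 differed from MT-ND4 at 58 bases and MTND5P11 differed from MT-ND5 at 127 bases. Their longest identical stretches were 71 and 77 bases.

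For the MTRNR2L family the stretch of 75 bases that codes for the humanin-like peptide is shown, with the aligned stretch of MT-RNR2 repeated under each. MTRNR2L12 and MTRNR2L8 both lie on the minus strand and each differed from MT-RNR2 at 2 bases of this stretch.
MTRNR2L12 (chr3:96617199-96617273): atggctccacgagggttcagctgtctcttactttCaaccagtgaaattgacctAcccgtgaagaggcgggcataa
MT-RNR2 (chrM:2633-2707): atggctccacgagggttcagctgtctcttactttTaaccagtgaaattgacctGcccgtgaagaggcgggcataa
MTRNR2L8 (chr11:10508152-10508226): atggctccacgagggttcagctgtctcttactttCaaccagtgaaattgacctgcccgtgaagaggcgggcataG
MT-RNR2 (chrM:2633-2707): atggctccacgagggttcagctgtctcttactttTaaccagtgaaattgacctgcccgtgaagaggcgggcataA
Over the full transcript MTRNR2L12 was 95.1% identical to MT-RNR2 and MTRNR2L8 was 93.1% identical.

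The 110 copies fell at 53 places in the genome when members within 20000 bases of each other were joined, and 30 of these places held a single copy. By parent, the genes of respiratory complex I gave 9 copies of MT-ND1, 11 of MT-ND2, 5 of MT-ND3, 12 of MT-ND4, 4 of MT-ND4L, 13 of MT-ND5 and 4 of MT-ND6. Complex III gave 9 copies of its only mitochondrial subunit, MT-CYB, and complex IV gave 14 of MT-CO1, 6 of MT-CO2 and 9 of MT-CO3. The ATP synthase subunits gave 8 copies of MT-ATP6 and 1 of MT-ATP8, and the large ribosomal RNA MT-RNR2 gave the 5 MTRNR2L genes. MT-RNR1, the small ribosomal RNA, was the parent of no member. GENCODE classed 57 members as processed pseudogenes, 49 as unprocessed pseudogenes and 4, all of them MTRNR2L genes, as protein-coding.

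One place held nearly all of the signal. A segment of 5861 bases at chr1:629062-634922 carried 7 members on the plus strand in the order of their parents in the mitochondrial genome, namely MTND1P23, MTND2P28, MTCO1P12, MTCO2P12, MTATP8P1, MTATP6P1 and MTCO3P12. It received 40273 fragments in control HepG2 and 85425 with treatment, and 204002 in control PLC/PRF/5 and 327588 with treatment. That was 99.3% of all fragments on members in both HepG2 libraries and 99.7% in both PLC/PRF/5 libraries. The other 103 members together received 290, 641, 703 and 894 fragments in the same order.

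Together the members took 0.243% of the control HepG2 library (95% Clopper-Pearson interval 0.240 to 0.245) and 0.423% of the treated one (0.420 to 0.426). In PLC/PRF/5 they took 0.957% of the control library (0.953 to 0.961) and 1.93% of the treated one (1.93 to 1.94). Both treated libraries were above their controls, and both PLC/PRF/5 libraries were above both HepG2 libraries. For every 100 fragments on mitochondrial genes, the members held 1.46 and 1.53 in control and treated HepG2 and 4.49 and 6.86 in control and treated PLC/PRF/5. The mitochondrial fragments include those of 5 parents described further on, which held 1422479 in control and 164016 in treated PLC/PRF/5. The step from 4.49 to 6.86 therefore also holds this change in the mitochondrial fragments. These intervals, like all others given, cover counting error only and hold no spread between libraries, as each group held 1 library. Fragments without molecular identifiers may be copies of the same molecule, so the intervals may be too narrow even for counting error.

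Within the chromosome 1 segment the level per length differed widely from copy to copy and between the lines. MTATP6P1 (chr1:633696-634376), a copy of the ATP synthase subunit MT-ATP6, stood at 3332 and 5769 FPKM in control and treated HepG2 and at 4429 and 9078 FPKM in control and treated PLC/PRF/5. It was high in all 4 libraries, and it held 37947 of the segment's 40273 fragments in control HepG2. MTCO1P12 (chr1:631074-632616), a copy of the catalytic core subunit of cytochrome c oxidase, stood at 32.7 and 74.6 FPKM in control and treated HepG2 and at 2753 and 5468 FPKM in PLC/PRF/5. Its fragments numbered 844, 2343, 90863 and 143291. Both PLC/PRF/5 libraries lay far above both HepG2 libraries.

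MTND1P23 (chr1:629062-629433), a partial copy of the complex I subunit MT-ND1, showed the widest gap between the lines among the members at 1 FPKM or more. It stood at 7.23 and 13.2 FPKM in control and treated HepG2, from 45 and 100 fragments, and at 4540 and 9869 FPKM in control and treated PLC/PRF/5, from 36123 and 62348 fragments. MTCO2P12 (chr1:632757-633438), a copy of the cytochrome c oxidase subunit that accepts electrons from cytochrome c, stood at 3.60 and 5.62 FPKM in HepG2 and at 545 and 1154 FPKM in PLC/PRF/5. MTCO3P12 (chr1:634376-634922), a partial copy of the third core subunit of that enzyme, was lower than MTCO2P12 in PLC/PRF/5, at 40.6 and 98.0 FPKM, and stood at 4.81 and 7.46 FPKM in HepG2. In all 3 copies each PLC/PRF/5 library was above each HepG2 library.

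MTND2P28 (chr1:629640-630683), a copy of the complex I subunit MT-ND2, differed less between the lines. Its level was 77.3 and 135 FPKM in control and treated HepG2 and 183 and 151 FPKM in control and treated PLC/PRF/5. Of the 7 copies on the segment, it and the sparse MTATP8P1 were the only ones lower in the treated PLC/PRF/5 library than in its control. MTATP8P1 (chr1:633535-633741), the copy of the short ATP synthase subunit MT-ATP8, was nearly silent beside its neighbours. It received 2, 0, 2 and 1 fragments (0.578, 0, 0.452 and 0.284 FPKM), although its last 46 bases overlap the start of MTATP6P1 and its parent received between 15278 and 40368 fragments per library. Only 5 of its 207 bases differed from MT-ATP8, so a high identity did not by itself go with a high count.

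**Figure D1:**
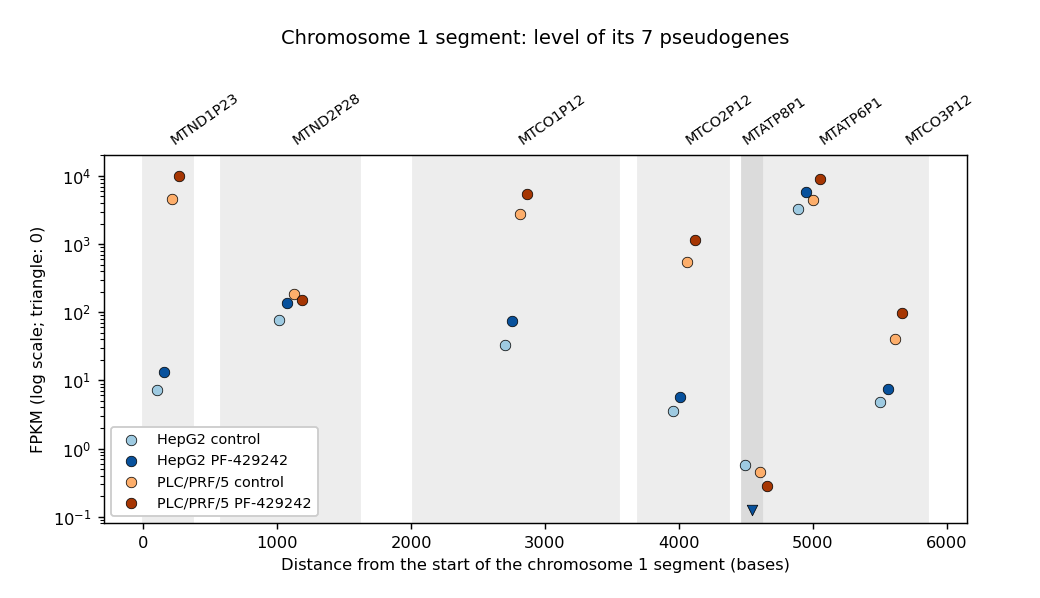
FPKM (log scale) of the 7 copies on the chromosome 1 segment in each of the 4 libraries, placed by distance in bases from the start of the segment. Shaded bands span each copy, points are single libraries, and the triangle marks a value of 0; MTATP6P1 lies between 3332 and 9078 FPKM in all libraries, while MTND1P23, MTCO1P12 and MTCO2P12 sit far higher in PLC/PRF/5 than in HepG2.

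The segment lies inside AL669831.3, a transcribed processed pseudogene annotated on the opposite strand. That gene was at 0.141, 0.143, 0.0340 and 0.107 FPKM in the 4 libraries (HepG2 control and treated, then PLC/PRF/5 control and treated), from 13, 16, 4 and 10 fragments. These counts are too low to compare with the levels of the copies inside it, and its part in those levels was not tested. Strandedness of the libraries was not given in the sources used here.

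Out of the fragments given to a copy or its parent, the copy's share does not depend on the scale of a library. For MTATP6P1 the share in HepG2 was 16.6% untreated (95% Clopper-Pearson interval 16.4 to 16.7) and 17.6% treated (17.4 to 17.7), and in PLC/PRF/5 it was 17.3% untreated (17.2 to 17.5) and 17.0% treated (16.9 to 17.1). It thus stayed between 16.6% and 17.6% over lines and treatment, although within each line the 2 counting intervals did not overlap. For MTCO1P12 it was 0.179% and 0.265% in HepG2 and 11.8% and 11.4% in PLC/PRF/5. For MTND1P23 it was 0.0268% and 0.0286% in HepG2 and 11.8% and 12.9% in PLC/PRF/5. The shares of MTCO2P12 were 0.0232% and 0.0221% in HepG2 against 2.73% and 2.71% in PLC/PRF/5. In these 3 copies both PLC/PRF/5 shares were far above both HepG2 shares. Within a line the share of MTCO1P12 also differed by more than the counting intervals, in opposite directions. Its intervals were 0.167 to 0.192 untreated and 0.255 to 0.276 treated in HepG2, and 11.7 to 11.9 and 11.3 to 11.5 in PLC/PRF/5. The share of MTND1P23 differed by more than its intervals in PLC/PRF/5.

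The other copies had smaller shares. MTND2P28 held 0.883% and 0.935% in HepG2, and 1.72% untreated and 0.657% treated in PLC/PRF/5. MTCO3P12 held 0.0227% and 0.0218% in HepG2 and 0.132% and 0.154% in PLC/PRF/5. For the copies away from chromosome 1 no share exceeded that of MTND6P4 in treated PLC/PRF/5, at 0.292%, among the members with at least 100 fragments.

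**Figure D2:**
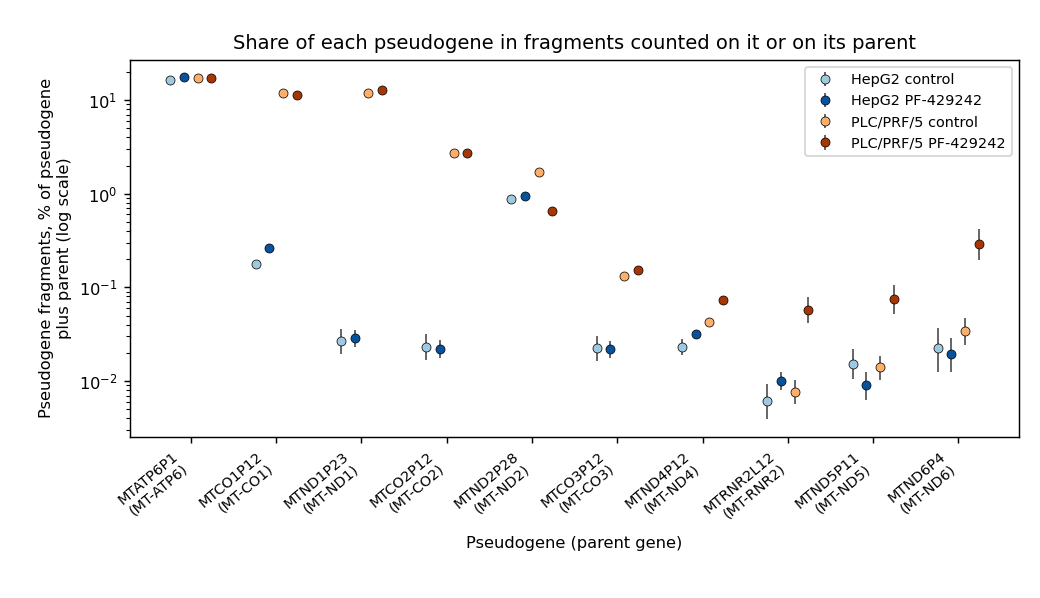
Fragments on a copy as a percentage of fragments on the copy plus its parent (log scale) for the 10 members with at least 100 fragments over the 4 libraries; points are single libraries and bars are 95% Clopper-Pearson intervals for counting error. MTATP6P1 stays between 16.6% and 17.6%, and MTCO1P12, MTND1P23 and MTCO2P12 split by cell line. The copies of MT-RNR2, MT-ND5 and MT-ND6 are highest in treated PLC/PRF/5, as are MTND4P12, MTND1P23 and MTCO3P12.

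Between the untreated lines, the copies differed where their parents hardly did. PLC/PRF/5 over HepG2, the FPKM ratio of MTND1P23 was 628 (95% exact conditional binomial interval 469 to 861) beside 1.25 for MT-ND1. It was 152 (112 to 211) for MTCO2P12 beside 1.25 for MT-CO2, and 84.2 (78.7 to 90.2) for MTCO1P12 beside 1.13 for MT-CO1. MTCO3P12 was 8.44 times as high (6.19 to 11.8) beside 1.45 for MT-CO3. For these 4 copies the parent's ratio lay far under the interval of the copy.

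Other members were closer to their parents between the lines. The ratio was 2.36 (2.22 to 2.51) for MTND2P28 beside 1.21 for MT-ND2, and 2.42 (1.95 to 3.02) for MTND4P12 on chromosome 5 beside 1.32 for MT-ND4. For MTATP6P1 it was 1.33 (1.31 to 1.35) beside 1.26 for MT-ATP6. MTRNR2L12 at 1.67 (0.996 to 2.86), MTND6P4 at 1.93 (1.03 to 3.78) and MTND5P11 at 1.19 (0.738 to 1.93) had intervals that held their parents' ratios of 1.33, 1.26 and 1.30.

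On the scale log2((FPKM + 1)/(FPKM + 1)), 6 of the 13 members with at least 1 FPKM in either untreated library were higher by 2-fold or more in PLC/PRF/5 and 0 were lower, where 13.1% of the 13861 genes so measured were higher and 10.0% were lower. The 6 were MTND1P23, MTND2P28, MTCO1P12, MTCO2P12, MTCO3P12 and MTND4P12. The median of the 13 was 0.95, against 0.06 for all genes measured. Some members passed the 1 FPKM minimum only through the higher library, such as MTCO1P40 (0.0957 FPKM in HepG2 and 1.12 in PLC/PRF/5) and MTCO2P2 (0.266 and 1.25), so the median describes these 13 and not the 110. Each line had 1 library, so a difference of line and a difference of library cannot be told apart.

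With PF-429242, most abundant copies in HepG2 were higher by about as much as their parents. The FPKM ratio of treated over control was 1.73 (95% exact conditional binomial interval 1.71 to 1.75) for MTATP6P1 beside 1.61 for MT-ATP6, and 2.28 (2.11 to 2.47) for MTCO1P12 beside 1.54 for MT-CO1. It was 1.83 (1.27 to 2.66) for MTND1P23 beside 1.71, 1.75 (1.64 to 1.87) for MTND2P28 beside 1.65, 1.56 (1.06 to 2.34) for MTCO2P12 beside 1.64, and 1.55 (1.06 to 2.29) for MTCO3P12 beside 1.61. In the latter 4 the parent's ratio lay inside the interval of the copy. For MTCO1P12 and MTATP6P1 the parent's ratio lay under it.

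In HepG2, 4 of the 12 members that reached 1 FPKM in either library were higher by 2-fold or more and 0 were lower, where 1.00% of the 12347 genes measured were higher and 2.14% were lower. The 4 were MTCO1P12, MTND4P12, MTND4LP30 and MTRNR2L12. MTCO2P2 reached 1 FPKM only in the treated library (0.266 and 1.09 FPKM), so it could only be above 0. MTND5P11 reached it only in the control (1.02 and 0.976 FPKM), so it could only be below 0. The median log2 ratio of the 12, which describes these and not the 110, was 0.79, against -0.17 for all genes measured, and 11 were above 0. With no minimum, the median over 70 members was 0.081. The fragments on mitochondrial genes as a whole were 1.66 times as large a share of the treated library as of its control, beside 1.74 (1.72 to 1.76) for all members summed.

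In PLC/PRF/5 the parents themselves differed widely. MT-ND5, MT-ND6, MT-CYB, MT-RNR1 and MT-RNR2, which are neighbours on the circular mitochondrial genome and were picked out from earlier results of these data, held 0.145 times the share of fragments in the treated library that they held in its control. The same 5 genes in HepG2 held 1.75 times the share. Other parents, such as MT-ND1, MT-CO1 and MT-ATP6, were at ratios of 1.97, 2.06 and 2.09 in PLC/PRF/5, and MT-ND4, the parent of 12 members, lay between at 1.25. The 31 members whose parent is among the 5 genes can therefore be set beside those whose parent is not.

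Copies of the parents with high ratios were themselves higher in treated PLC/PRF/5. The ratio was 2.05 (2.03 to 2.07) for MTATP6P1, 1.99 (1.97 to 2.00) for MTCO1P12 and 2.17 (2.15 to 2.20) for MTND1P23. For MTCO2P12 it was 2.12 (2.06 to 2.18) beside 2.14 for MT-CO2, and for MTCO3P12 2.41 (2.16 to 2.70) beside 2.07 for MT-CO3. MTND2P28 went the other way from its parent, at 0.828 (0.788 to 0.869) beside 2.19 for MT-ND2, as did MTATP8P1 on its 2 and 1 fragments.

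For copies of the parents with low ratios, values of control and treated PLC/PRF/5 lay close together. MTRNR2L12 (chr3:96617188-96618236), at 1.31 and 4.12 FPKM in control and treated HepG2, was at 2.18 and 2.25 FPKM in control and treated PLC/PRF/5, a ratio of 1.03 (0.660 to 1.59) beside 0.136 for MT-RNR2. MTND5P11 stood at 1.02 and 0.976 FPKM in HepG2 and at 1.21 and 1.07 FPKM in PLC/PRF/5, where its ratio was 0.884 (0.549 to 1.41) beside 0.163 for MT-ND5. MTND6P4 stood at 1.72 and 2.35 FPKM in HepG2 and at 3.31 and 3.38 FPKM in PLC/PRF/5, where its ratio was 1.02 (0.609 to 1.70) beside 0.120 for MT-ND6. In all 3 copies the parent's ratio lay under the interval of the copy.

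Thinner copies of the same parents were less clear. MTRNR2L8, with 4, 8, 14 and 6 fragments in the 4 libraries (HepG2 control and treated, then PLC/PRF/5 control and treated), had a PLC/PRF/5 ratio of 0.540 (0.170 to 1.50). MTCYBP18, a copy of the complex III subunit cytochrome b with 6, 13, 7 and 2 fragments, had a ratio of 0.360 (0.0365 to 1.89), whose interval held the 0.153 of MT-CYB. Summed over the 31 members of these parents, 182 fragments in control and 135 in treated PLC/PRF/5 gave a ratio of shares of 0.934 (0.742 to 1.17). Without MTRNR2L12, which gave the most of them, the ratio was 0.900 (0.684 to 1.18). In HepG2 the 31 members summed to 100 and 204 fragments, a ratio of 1.68 (1.31 to 2.15), and to 1.24 (0.920 to 1.67) without MTRNR2L12.

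The members of all other parents outside the chromosome 1 segment had 521 fragments in control and 759 in treated PLC/PRF/5, a ratio of shares of 1.83 (1.64 to 2.06). In HepG2 they were at 190 and 437 fragments, a ratio of 1.89 (1.59 to 2.25). MTND4P12 gave most of these fragments, and without it, a choice made after the values were seen, the ratios were 1.24 (0.994 to 1.54) in PLC/PRF/5 and 1.37 (1.02 to 1.84) in HepG2. The intervals of the 2 sums did not overlap in PLC/PRF/5 with MTND4P12 and did without it, and no test of their difference was made.

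Of the 13 members that reached 1 FPKM in either PLC/PRF/5 library, 7 were higher by 2-fold or more and 0 were lower, where 1.48% of the 13144 genes measured were higher and 1.82% were lower. The 7 were MTND1P23, MTCO2P12, MTATP6P1, MTCO3P12, MTND4P12, MTND4LP30 and MTCO2P2. MTND4LP30 reached 1 FPKM only in the treated library (0.945 and 4.16 FPKM), so it could only be above 0. MTCO1P40 reached it only in the control (1.12 and 0.942 FPKM), so it could only be below 0. The median log2 ratio of the 13, which describes these and not the 110, was 1.03, against -0.13 for all genes measured, and 10 were above 0. On the same side of 0 as their parent were 8 of the 10 whose parent is outside the 5 genes, with MTND2P28 and MTCO1P40 opposite, and 1 of the 3 whose parent is among them. In HepG2 the corresponding counts were 9 of 9 and 2 of 3, with MTND5P11 opposite. The 1 FPKM minimum fixed the side of MTND4LP30 and MTCO1P40 in PLC/PRF/5 and of MTCO2P2 and MTND5P11 in HepG2. These counts are therefore partly set by the minimum. Without it, 48 of 91 members in PLC/PRF/5 and 47 of 70 in HepG2 lay on their parent's side. The comparison of the controls and that of treatment share the PLC/PRF/5 control library.

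**Figure D3:**
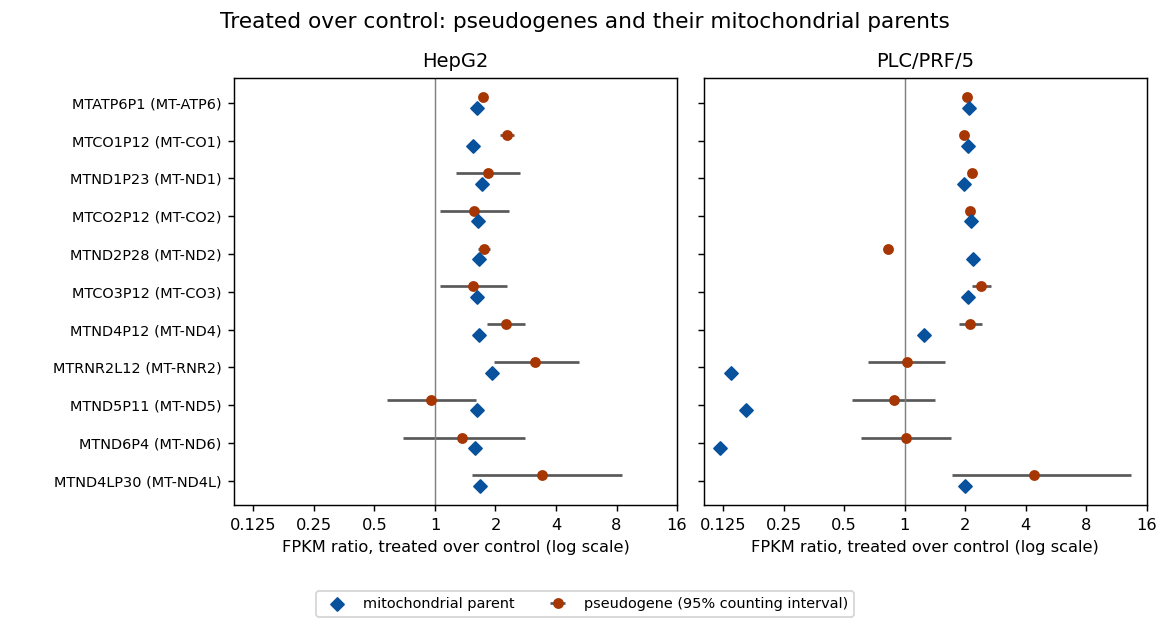
FPKM ratio of treated over control (log scale) in HepG2 and PLC/PRF/5 for members with at least 20 fragments in each pair of libraries; circles with bars are copies with 95% counting intervals and diamonds are their mitochondrial parents. In PLC/PRF/5 the diamonds of MT-RNR2, MT-ND5 and MT-ND6 lie at 0.136, 0.163 and 0.120 while their copies lie at 1.03, 0.884 and 1.02, and MTND2P28 lies at 0.828 beside a parent at 2.19.

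The second segment, of 5225 bases at chr5:134923303-134928527, held MTCYBP18, MTND6P4, MTND5P11, MTND4P12, MTND4LP30 and MTND3P25 and so spans parents with high and low ratios. MTND6P4 lies on the plus strand and the others on the minus strand, as MT-ND6 lies opposite to its neighbours in the mitochondrial genome. MTND4P12, a copy of a core subunit of complex I, stood at 4.91 and 11.0 FPKM in control and treated HepG2 and at 11.9 and 25.3 FPKM in control and treated PLC/PRF/5. Its ratio of treated over control was 2.25 (1.81 to 2.81) in HepG2 beside 1.65 for MT-ND4, and 2.13 (1.86 to 2.43) in PLC/PRF/5 beside 1.25. In both lines the parent's ratio lay under the interval of the copy's ratio.

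MTND4LP30, a copy of the small complex I subunit MT-ND4L that shares 7 bases with MTND4P12, received 8, 33, 6 and 21 fragments. Its ratio was 3.39 (1.54 to 8.49) in HepG2 and 4.41 (1.72 to 13.3) in PLC/PRF/5, and both intervals held the parent's 1.68 and 1.99. MTND5P11, on the same segment and strand on the other side of MTND4P12, was at 0.954 (0.574 to 1.60) in HepG2 and 0.884 in PLC/PRF/5. The copies on this segment did not move as one, since MTND4P12 was more than 2-fold higher in both treated libraries and MTND5P11 was at or just under its control in both.

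The segment as a whole received 174, 416, 448 and 677 fragments, with a ratio of treated over control of 1.96 (1.64 to 2.36) in HepG2 and 1.90 (1.69 to 2.15) in PLC/PRF/5. Without MTND4P12 these were 1.44 (1.04 to 2.01) and 1.11 (0.818 to 1.49). The segment lies in an intron of PCBD2, a gene on the plus strand that encodes a pterin dehydratase and cofactor of the factor HNF1. PCBD2 was at 1.38 and 1.07 FPKM in control and treated HepG2 and at 1.11 and 0.969 FPKM in PLC/PRF/5. Its log2 ratios of -0.20 and -0.10 lay near the medians of -0.17 and -0.13 for all genes measured. The part of PCBD2 in the levels of the copies was not tested.

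A single fit over both lines used them in place of replicates, so that its spread starts from their difference in response. The SE of a gene was also moderated by the spread of all genes fitted, so it is not that gene's difference alone. In limma on log2(FPKM + 1) with cell line as a block, which leaves 1 residual degree of freedom, 0 of 12838 genes passed an adjusted p of 0.05 (0% higher and 0% lower), and so 0 of the 12 members fitted. At an unadjusted p under 0.05 there were 8 members, all with positive estimates, where 1.90% of the genes fitted were higher at that level and 19.4% differed in either direction. With the values rescaled to equal sums (TPM scale), 5 of 19 members fitted passed the adjusted threshold, all higher, where 0.398% of the genes fitted were higher. The estimate of treated minus control was 1.03 (SE 0.0749) for MTND4P12, 1.36 (SE 0.111) for MTND4LP30 and 1.08 (SE 0.106) for MTCO1P12, each with an adjusted limma p of 0.193, and 0.91 (SE 0.249) for MTATP6P1 with 0.206. Estimates for MTND2P28 (0.26, SE 0.277), whose 2 lines lay on opposite sides of 0, and for MTND5P11 (-0.06, SE 0.140) were smaller in size than their SE. Their adjusted limma p values were 0.601 and 0.805. MTRNR2L12, with ratios of 3.14 in HepG2 and 1.03 in PLC/PRF/5, had an estimate of 0.59 (SE 0.300) and an adjusted p of 0.349.

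Sequence identity to the parent, which the choice of members did not use, set apart a small group. In local alignments 19 members were at least 90% identical to their parent, between 92.0% and 99.1%. These 19, at 9 places in the genome, held 659299 fragments or 99.9% of all fragments on members. The chromosome 1 segment alone held 657288 of these fragments, so the percentage mostly restates that 1 place. The other 91 members, between 65.7% and 89.6% identical, held 517 fragments together and at most 31 each. The median over the 4 libraries together was 107 fragments for the 19 and 3 for the 91, and 15 of the 19 against 7 of the 91 had at least 20 fragments. Stretches identical to the parent ran to between 34 and 266 bases in the 19 and to at most 46 bases in the 91.

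Spearman's rho between identity and fragments was 0.59 among the 19, 0.028 among the 91 and 0.35 over all 110, given as a description because copies at one place share their history and all share the same libraries. Among the 19 there were exceptions, since MTATP8P1 at 97.6% identity had 5 fragments over the 4 libraries and MTRNR2L2, a short copy on chromosome 5 with 64 of 65 aligned columns identical, had 1. MTND2P40 at 66.7% identity, by contrast, had 31, the most of the 91, with 10, 8, 7 and 6 in the 4 libraries. MTATP6P19 on chromosome X was the least identical member at 65.7% and had 2.

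**Figure D4:**
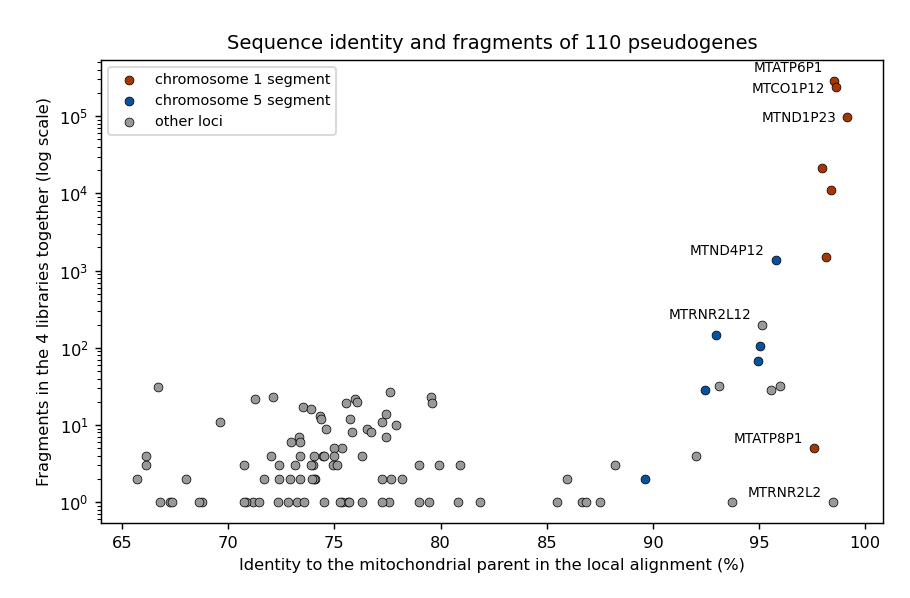
Fragments over the 4 libraries together (log scale) against identity to the mitochondrial parent in percent for the 110 members, each point 1 member, coloured by place. Members under 90% identity have at most 31 fragments, while those above spread from 1 fragment (MTRNR2L2) to 287390 (MTATP6P1).

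Outside the segments on chromosomes 1 and 5 lay 97 members, with a median of 3 fragments over the 4 libraries and no level above 4.19 FPKM. Summed, they held 116, 225, 255 and 217 fragments, a ratio of treated over control of 1.59 (1.27 to 2.01) in HepG2 and 1.07 (0.890 to 1.29) in PLC/PRF/5. MTRNR2L12 held the most of them, with 23, 88, 49 and 40 fragments and a HepG2 ratio of 3.14 (1.97 to 5.21) beside 1.93 for MT-RNR2. The other MTRNR2L genes were thin, with 7, 6, 6 and 4 fragments for MTRNR2L3, 6, 7, 2 and 4 for MTRNR2L4, and 0, 0, 0 and 1 for MTRNR2L2. All 5 genes of the family summed to 40, 109, 71 and 55 fragments, with a ratio of 2.24 (1.55 to 3.30) in HepG2 and 0.976 (0.673 to 1.41) in PLC/PRF/5. Without MTRNR2L12 the ratios were 1.02 (0.510 to 2.05) and 0.859 (0.414 to 1.73).

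The level of 4.19 FPKM belonged to MTCO2P2 in treated PLC/PRF/5. This copy of MT-CO2 lies at chr18:47853233-47853457 in an intron of SMAD2, a signal transducer of the TGF-beta pathway, on the same strand. It received 1, 5, 6 and 16 fragments, with a PLC/PRF/5 ratio of 3.36 (1.25 to 10.5) beside 2.14 for MT-CO2, while SMAD2 stood at 2.57, 1.90, 1.75 and 1.52 FPKM. The log2 ratios of SMAD2 were -0.30 in HepG2 and -0.13 in PLC/PRF/5, beside medians of -0.17 and -0.13 for all genes measured. The part of SMAD2 in the level of the copy was not tested. MTCO1P40 on chromosome 17, which is 96.0% identical to MT-CO1, received 1, 6, 15 and 10 fragments, a PLC/PRF/5 ratio of 0.840 (0.337 to 2.00) beside 2.06 for its parent.

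Fragments were counted in PLC/PRF/5 alone for 40 members and in HepG2 alone for 19, most of them on 1 or 2 fragments. A member on 1 fragment, as 31 of the 110 were, can be counted in 1 line only. The share of all genes seen in 1 line alone was not computed, so these counts do not measure a difference between the lines. MTND4P20, 72.1% identical to MT-ND4, received 0 and 0 fragments in HepG2, where a count of 0 allows up to 3, and 11 and 12 in PLC/PRF/5. A group of 8 members at chr7:57169406-57197772 likewise summed to 0 and 0 fragments in HepG2 and to 16 and 8 in PLC/PRF/5. In the other direction, MTND5P25 on chromosome 2 received 1 and 8 fragments in HepG2 and 0 and 0 in PLC/PRF/5. MTND3P1 received 0, 0, 0 and 3 fragments and MTCO1P39 received 1, 0, 1 and 6, both highest in treated PLC/PRF/5, at 0.803 and 0.736 FPKM.

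Other groups were seen in both lines. The 8 members at chr9:5091093-5110762 summed to 19, 9, 34 and 31 fragments. MTND2P40 and MTATP6P27, which lie in an intron of ZNF709 on chromosome 19, received 10, 8, 7 and 6 fragments and 7, 2, 5 and 8 fragments. ZNF709 stood at 0.0630, 0.0259, 0.0328 and 0.0414 FPKM, values that gave no whole fragments with the lengths used. Its part in the counts of these members was not tested.

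In all, 71 members overlapped another annotated gene, 48 lay inside a protein-coding gene and 0 overlapped an exon of one. Of those inside a protein-coding gene, 17 were on the strand of a host and 33 on the opposite strand, and members with hosts on both strands were counted in each. RAE1, an RNA export factor that holds MTRNR2L3 in an intron, was at 10.3, 8.41, 8.32 and 7.60 FPKM while its member stayed at or under 0.272 FPKM. The part of RAE1 in that level was not tested.

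The nuclear genes that make and process mitochondrial RNA were each within 2-fold of their controls. Of 26 such genes, among them the polymerase POLRMT and the RNA-binding factor LRPPRC, 0 were higher and 0 were lower by 2-fold in either line. Over all genes measured, 1.00% were higher and 2.14% lower in HepG2, and 1.48% and 1.82% in PLC/PRF/5. At shares this small, 0 of 26 does not set these genes apart. The median log2 ratio of the 26 was -0.13 in HepG2 (range -0.41 to 0.10) and -0.05 in PLC/PRF/5 (range -0.34 to 0.27). Both were close to the medians of all genes measured. In each line 7 were above and 19 below 0, where 17.6% of all genes measured were above 0 in HepG2 and 29.1% in PLC/PRF/5.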

How the data were processed

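RNA was sequenced from 4 cultures, 1 library in each of 4 groups taken from the labels. RNA was extracted with a phenol-based kit and sequenced from Illumina libraries, per the labels' protocols. TopHat2 aligned the reads to GRCh38, per the submitters' processing notes. The authors deposited FPKM for 32479 Ensembl genes. For the counting program, its treatment of fragments that match several places, the annotation release and any selection of polyadenylated RNA, details were not given in the sources used here. Members, parents, lists and comparisons were chosen with earlier results of these data known.

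Symbols, positions and lengths (union of exons) came from GENCODE 29 on GRCh38, which held 32354 of the identifiers, and 105 of the 110 members had the same symbol in a second table of gene names. With these lengths, the deposited FPKM gave whole fragments within 0.001 for 24452 genes (75.3%), among them all 110 members and 15 parents. Library totals were read from these steps.

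Log2 ratios are of (FPKM + 1), which understates the change of low genes, for genes reaching 1 FPKM in either library, and higher or lower means 2-fold or more. FPKM ratios carry 95% exact conditional binomial intervals on fragments and shares carry exact Clopper-Pearson intervals (SciPy 1.17.1). The shared fit used limma 3.58.1 in R 4.3.3 (eBayes with trend, Benjamini-Hochberg adjustment, threshold 0.05) on genes reaching 1 FPKM in at least 2 libraries. It was tested on simulated data.

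Each member's transcript was aligned locally to its parent's transcript with Biopython 1.88 (match 2, mismatch -3, gap opening -5, extension -2). A search of the mitochondrial genome had been planned, and transcripts were used because no genome sequence was used here. Identity is over aligned columns, and 104 members aligned over at least 80% of their length. The members named are every MTRNR2L gene, the 20 with the highest FPKM in any library, those with at least 20 fragments in a pair and a 2-fold ratio, and the most and least identical. All parents and host genes are named too, except a few hosts that are not reported here. MTATP8P1, MTND3P25 and MTND5P25 were named, and sums without their largest member were made, after their values were seen.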

Additional observations from a re-analysis of the deposited data

Results flagged for a closer look

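MTND2P28, the copy of MT-ND2 on the chromosome 1 segment, moved in opposite directions in the lines. The FPKM ratio of treated over control was 1.75 in HepG2 and 0.828 in PLC/PRF/5, and both counting intervals excluded 1. With 1 library per group this difference between the lines was not tested.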

How the results depend on the processing

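The labels give no replicate numbers, so libraries could be paired by cell line alone, as in the block of the shared limma fit, and without that block 0 members were called as well, with 1 at an unadjusted p under 0.05. No direction of a called value turned under any alternative. Of the counts, medians and calls recomputed under each alternative, 84 stayed near the values reported and 30 moved, and of the single ratios of named members 154 stayed and 36 moved. In HepG2, the 4 members higher became 1 with a pseudocount of 5, 2 on the TPM scale, 8 at 1.5-fold and 0 at 4-fold, and the 0 lower became 4 on the TPM scale. The HepG2 median of 0.79 became 0.55 with a pseudocount of 5, 0.081 with no filter, 0.31 on the TPM scale and 0.99 both with median-of-ratios scaling and with totals over nuclear genes. In PLC/PRF/5, the 7 higher became 4 with a pseudocount of 5, 4 on the TPM scale and 0 at 4-fold. That median of 1.03 became 0.62 with a pseudocount of 5, 0.018 with no filter, 0.22 on the TPM scale and 1.14 with median-of-ratios scaling. Between the controls, the 6 higher became 10 and the 0 lower became 1 on the TPM scale. Their median of 0.95 became 1.26 and 0.41 with pseudocounts of 0.1 and 5, 0.10 with no filter, 2.84 at 5 FPKM, 1.18 at 20 fragments, 0.55 on the TPM scale and 1.12 with totals over nuclear genes. With no filter, 47 of 70 members in HepG2 and 48 of 91 in PLC/PRF/5 lay on the side of 0 of their parent, against 11 of 12 and 9 of 13. The TPM scale moved the median of all genes to -0.48 in HepG2 and -0.43 in PLC/PRF/5. On it the shared limma fit called 5 of 19 members, all higher, and 4987 of 16340 genes, of which 65 (0.398% of those fitted) were higher. The cause of these moves was not tested, apart from the thresholds, which count fewer or more members by construction. Most members rest on few fragments, and a copy's count depends on how fragments that match its parent were assigned.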
